A study of Homo sapiens with 30 samples.

Results

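Kinesins are motor proteins that move along microtubules or act on their ends. One set builds and divides the mitotic spindle: KIF11 slides spindle poles apart, KIF18A and KIF2C act on microtubule ends, and KIF23 and KIF20A serve cytokinesis. Another set carries vesicles, organelles and protein complexes through the cytoplasm and along cilia, among them the conventional kinesins KIF5A, KIF5B and KIF5C and the KIF1 and KIF13 families. RNA of the mitotic set rises and falls with the cell cycle, and many of those genes are repressed when p53 induces CDKN1A and the DREAM complex binds the CHR element of their promoters. The data here are the raw gene counts of H1299 cells, and the members are the protein-coding genes whose symbols start with KIF and a digit, with KIFC1, KIFC2 and KIFC3. The rule named 42 genes, of which 41 had a row among the 39359 genes of the table, and KIF2B, a spindle kinesin, had none. KIF6 and KIF19 did not pass the filter on low counts, so that 39 of the 21335 genes tested were kinesins. By role, 14 were listed as mitotic, 17 as transport and 11 as other kinesins, and 13, 17 and 9 of these were tested.

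H1299 is a human lung carcinoma line that lacks p53. The cells were transfected with a vector that carried GFP alone (pGFP) or GFP with wild type p53, with a missense mutant of p53 called RW, or with p53 that held a single O6-methylguanine in its template strand (p53 O6-meG). In the p53 TM group the O6-methylguanine vector was given to cells treated with 10 µM O6-benzylguanine, which inactivates the repair protein AGT and leaves the lesion to be transcribed. No other group had O6-benzylguanine. In comparisons with p53 TM, effects of the compound itself and of the transcribed lesion therefore cannot be told apart. Sorting for GFP took place 6 h or 24 h after transfection, and each of the 10 groups had 3 libraries. The labels number them as replicates, and the authors call them biological triplicates. The inserts were driven by TRE-tight promoters of the vector, and all groups, pGFP included, were transfected and sorted. The libraries held between 32302699 and 71950532 counts, with a median of 44424643.

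For 2 of the 30 libraries, which the labels give as replicate 2 at 6 h in the p53 O6-meG and p53 TM groups, the title named both groups. Their CDKN1A levels, in CPM (counts scaled to the size of each library), went against the group given in their labels: the library labelled p53 O6-meG stood at 50.2 and its companions at 269 and 261, and the library labelled p53 TM stood at 250 and its companions at 65.9 and 57.9. Both were left out of the fit, which held 28 libraries, and are shown apart. The carcinoma markers VIM, KRT8 and KRT18 were detected in every library, and PTPRC, CDH5 and SFTPC did not exceed 0.108 CPM in any. HBB, a red cell gene, was at 162 to 1196 CPM, while HBA1 did not exceed 0.0751 CPM, and the part of HBB in any result was not tested. In these bulk libraries, fewer cells of a kind and less RNA per cell cannot be told apart.

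The start of the mitotic kinesin genes is shown first, because CHR and CCAAT letters are known from the promoters of cell cycle genes. Each line gives the 100 bases before the transcription start from RefSeq promoters on build GRCh38.p14, written 5′ to 3′ on the gene's strand, with capitals for the CHR motif, spelled TTTGAA and in a variant form TTCGAA, and for the CCAAT motif, on either strand. KIF18A to KIF22 fell with wild type p53 at 24 h, and KIF2C fell too but has neither motif. KIF20A, which did not pass the test at 24 h, has CCAAT letters only, and KIF1C is a transport kinesin that rose. KIF20B, which did not pass either, has CCAAT letters in this stretch and CHR letters past the start. KIF14, KIF18B and KIFC1, which fell and are not printed, also have their CHR letters past the start, at bases 2, 3 and 5.
KIF18A, chr11:28108157-28108256, minus strand: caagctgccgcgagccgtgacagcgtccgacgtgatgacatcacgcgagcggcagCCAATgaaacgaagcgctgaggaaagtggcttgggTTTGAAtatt
KIF11, chr10:92593030-92593129, plus strand: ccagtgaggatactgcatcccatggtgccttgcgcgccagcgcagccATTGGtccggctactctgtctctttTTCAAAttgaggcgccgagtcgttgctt
KIF23, chr15:69414249-69414348, plus strand: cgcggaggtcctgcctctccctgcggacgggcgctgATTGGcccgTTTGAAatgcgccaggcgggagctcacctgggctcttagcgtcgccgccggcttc
KIF4A, chrX:70290004-70290103, plus strand: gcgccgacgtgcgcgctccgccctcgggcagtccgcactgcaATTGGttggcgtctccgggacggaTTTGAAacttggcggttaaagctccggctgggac
KIF22, chr16:29790651-29790750, plus strand: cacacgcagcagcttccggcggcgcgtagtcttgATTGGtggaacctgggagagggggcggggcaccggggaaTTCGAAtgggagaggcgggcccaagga
KIF2C, chr1:44739737-44739836, plus strand: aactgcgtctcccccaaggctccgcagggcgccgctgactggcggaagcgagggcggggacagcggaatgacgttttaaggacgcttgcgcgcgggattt
KIF20A, chr5:138179012-138179111, plus strand: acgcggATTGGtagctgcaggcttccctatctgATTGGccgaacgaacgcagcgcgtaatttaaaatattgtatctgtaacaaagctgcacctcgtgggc
KIF20B, chr10:89701490-89701589, plus strand: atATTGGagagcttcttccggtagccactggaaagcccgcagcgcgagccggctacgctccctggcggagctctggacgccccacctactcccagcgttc
KIF1C, chr17:4997850-4997949, plus strand: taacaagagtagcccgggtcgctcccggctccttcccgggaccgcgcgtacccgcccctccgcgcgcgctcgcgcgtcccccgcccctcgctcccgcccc

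Over the full entries, which run from 250 bases before to 50 after the start, CHR letters of either spelling were present in 11 of the 14 mitotic kinesins with an entry. They were present in 1 of 12 transport kinesins (KIF5B) and 1 of 8 other kinesins (KIF24). Of all 35116 promoters in the table, 16.4% held CHR letters and 34.6% held the CCAAT motif. It was present in 11 of 14 mitotic, 4 of 12 transport and 3 of 8 other kinesins. Both motifs together were present in 10 of 14 mitotic kinesins and in 6.38% of all promoters. They were present in 8 of the 10 mitotic kinesins that fell with wild type p53 at 24 h and in 2 of the 3 that were not called, KIF20B and KIF4B. Among the mitotic kinesins KIF2C and KIF2B held neither motif, KIF20A held CCAAT letters without a CHR, and KIF15 held a CHR without CCAAT. A match of letters is a description of the sequence and shows no binding. KIF5A, KIF13B, KIF19, KIF21B, KIF26B, KIF27, KIFC2 and KIFC3 had no entry.

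Per length, the levels in pGFP libraries at 24 h ranged over all classes. KIF5B, the ubiquitous conventional kinesin heavy chain, was highest at 75.7 ± 4.36 CPM per kb of exon (SD, n = 3). The mitotic kinesins KIF2C, KIF20A and KIF4A came next at 54.8 ± 0.348, 49.4 ± 3.31 and 41.2 ± 1.32 CPM per kb. The highest transport kinesins after KIF5B were KIF3B at 29.3 ± 0.675 and KIF1C at 20.8 ± 1.60 CPM per kb. KIF24, which acts on centriolar microtubules, KIF2A and KIF7 led the other kinesins at 7.03 ± 0.869, 5.94 ± 0.666 and 2.59 ± 0.156 CPM per kb. KIF1A, a neuronal vesicle motor, and KIF26B were at 0.102 ± 0.0136 and 0.0322 ± 0.00877 CPM per kb. KIF4B, a near-identical copy of KIF4A, was at 0.209 ± 0.0144 CPM per kb, and its counts are uncertain because reads may be split between the pair.

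With wild type p53 at 24 h, most mitotic kinesins fell and the transport kinesins divided. Of the 13 mitotic kinesins tested, 10 fell and none rose in edgeR's quasi-likelihood test at a Benjamini-Hochberg adjusted p under 0.05, while 14.5% of all genes tested fell and 20.5% rose. The median log2 fold change was -0.73 over the 13 mitotic kinesins, 0.38 over the 17 transport kinesins and 0.01 over all genes tested. DESeq2 also called 10 mitotic kinesins lower and none higher. Of the 17 transport kinesins 8 rose and 6 fell, and of the 9 other kinesins tested 2 rose and 1 fell.

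KIF18A, which shortens kinetochore microtubules, was at 64.4, 69.3 and 66.4 CPM in the pGFP libraries and at 23.3, 33.4 and 38.9 in the wild type p53 libraries. The groups did not overlap, and the log2 fold change was -1.06 ± 0.16 (SE; edgeR adjusted p = 8.1e-06). KIF14, a cytokinesis motor, was at 110, 110 and 107 CPM with pGFP and at 45.6, 61.0 and 75.5 with wild type p53. KIF15, a spindle motor that can take the place of KIF11, was at 43.0, 47.9 and 46.6 against 21.7, 26.0 and 31.4 CPM. Both genes were lower in every wild type p53 library, by log2 fold changes of -0.84 ± 0.14 and -0.80 ± 0.15 (SE).

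KIF11, which drives the spindle poles apart, was at 159, 175 and 159 CPM with pGFP and at 78.1, 94.3 and 114 with wild type p53. KIF23, the motor of the centralspindlin complex, was at 170, 183 and 181 against 74.5, 99.2 and 134 CPM. Neither gene overlapped between the groups, and the log2 fold changes were -0.78 ± 0.12 for KIF11 and -0.80 ± 0.18 for KIF23 (SE). KIF2C, a microtubule depolymerase at centromeres, was at 200, 198 and 201 CPM with pGFP and at 96.4, 117 and 140 with wild type p53. KIFC1, a minus-end motor that clusters spindle poles, was at 98.0, 105 and 107 against 45.5, 62.9 and 78.9 CPM. The log2 fold changes were -0.76 ± 0.11 and -0.73 ± 0.15 (SE), again with no overlap.

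KIF18B, a partner of KIF2C at microtubule ends, was at 70.2, 75.6 and 77.2 CPM with pGFP and at 33.9, 44.1 and 62.4 with wild type p53. KIF22, which moves chromosome arms, was at 99.5, 104 and 105 against 49.6, 73.1 and 80.5 CPM. KIF4A, a chromosome-bound motor of the central spindle, was at 190, 182 and 193 against 132, 128 and 167 CPM. All 3 fell without overlap, by 0.67, 0.60 and 0.40 on the log2 scale. The 3 mitotic kinesins that were not called were KIF20A (0.10 ± 0.07 log2), KIF20B (-0.11 ± 0.08) and the low-count KIF4B (-0.39 ± 0.27; SE). KIF20A stood at 179, 188 and 204 CPM with pGFP and at 207, 195 and 211 with wild type p53, so that the groups overlapped.

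The wild type p53 libraries differed among themselves: across the 10 genes that fell, replicate 1 was lowest for 9 and replicate 3 was highest for 10. Replicate 1 was also lowest for all 10 genes in the p53 O6-meG and p53 TM groups, for 7 of 10 with pGFP and for 6 of 10 with RW. The residuals of libraries with the same replicate number at 24 h were correlated in 30 of 30 pairs. With the replicate number as a block within each time, the same count of mitotic kinesins, 10, fell.

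**Figure D1:**
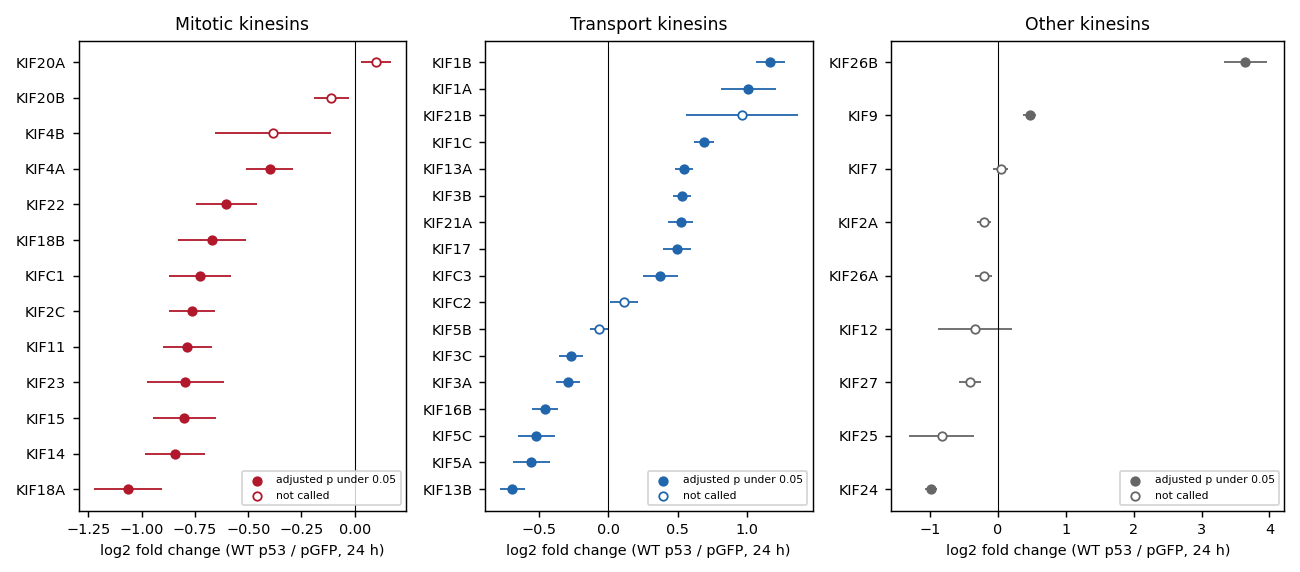
Log2 fold change of each kinesin tested, wild type p53 over pGFP at 24 h, with its standard error (bars), by class; filled points passed an adjusted p of 0.05 in edgeR. All called mitotic kinesins lie left of 0, while called transport kinesins lie on both sides.

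Among the transport kinesins, KIF1B, which carries mitochondria and synaptic vesicle precursors, was at 151, 155 and 147 CPM with pGFP and at 377, 347 and 295 with wild type p53. Its log2 fold change was 1.17 ± 0.10 (SE; edgeR adjusted p = 2e-09). KIF1C, a vesicle motor, was at 163, 187 and 187 against 298, 300 and 270 CPM. Both genes were higher in every wild type p53 library.

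KIF13A, a motor of recycling endosomes, was at 99.6, 105 and 107 CPM with pGFP and at 163, 156 and 138 with wild type p53. KIF3B, a subunit of the kinesin-2 motor of cilia, was at 176, 184 and 178 against 273, 272 and 233 CPM. KIF21A was at 197, 202 and 194 against 325, 269 and 258 CPM. The log2 fold changes of these 3 were 0.55, 0.53 and 0.52, with no overlap between the groups.

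KIF1A rose from 1.54, 1.97 and 1.95 CPM to 3.35, 4.52 and 3.15, a log2 fold change of 1.01 ± 0.20 (SE) at a low level. KIF17, a ciliary and dendritic motor, was at 10.4, 10.5 and 10.6 against 14.3, 15.6 and 14.4 CPM. KIFC3, a minus-end motor, was at 57.8, 80.0 and 82.8 against 81.2, 97.4 and 108 CPM. KIF17 did not overlap between the groups, whereas KIFC3 did and lost its call without pGFP replicate 1 or wild type p53 replicate 2 or 3.

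Of the 6 transport kinesins that fell, KIF13B was at 29.2, 23.2 and 23.2 CPM with pGFP and at 15.2, 16.3 and 15.2 with wild type p53, with a log2 fold change of -0.69 ± 0.09 (SE). KIF5A, a conventional kinesin of neurons, was at 13.3, 9.65 and 10.1 against 7.25, 6.99 and 8.21 CPM. KIF5C, its paralog, was at 49.8, 39.8 and 39.0 against 32.2, 28.7 and 28.7 CPM. None of the 3 overlapped between the groups.

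KIF16B, an early endosome motor, was at 32.5, 30.3 and 27.5 CPM with pGFP and at 22.4, 24.1 and 19.4 with wild type p53. KIF3A, which pairs with KIF3B, was at 48.9, 50 and 43.6 against 37.4, 38.8 and 40.4 CPM. KIF3C, an alternative partner of KIF3A, was at 47.1, 49.0 and 47.0 against 37.0, 41.9 and 39.8 CPM. Hence KIF3A and KIF3C fell by 0.29 and 0.27 on the log2 scale while KIF3B rose, and KIF3C lost its call without pGFP replicate 2. KIF5B was at 423, 473 and 437 against 418, 426 and 429 CPM and was not called, with a log2 fold change of -0.07 ± 0.07 (SE). KIFC2 (0.11 ± 0.10) and KIF21B (0.96 ± 0.40, adjusted p = 0.068 in edgeR) were not called either; KIF21B passed with the replicate block (adjusted p = 4.1e-05).

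Among the other kinesins, KIF26B, which acts in cell adhesion and polarity, showed the largest change of any kinesin tested in this comparison. It was at 0.319, 0.521 and 0.551 CPM with pGFP and at 7.00, 5.87 and 4.79 with wild type p53, a log2 fold change of 3.64 ± 0.31 (SE; edgeR adjusted p = 1.1e-09). KIF24 was at 52.0, 42.8 and 41.8 against 22.8, 21.9 and 24.3 CPM, a log2 fold change of -0.98 ± 0.09 (SE). KIF9, a motile cilium kinesin, was at 9.19, 9.45 and 8.93 against 13, 11.9 and 13.3 CPM. None of the 3 overlapped between the groups. KIF2A, at 68.9, 86.2 and 77.4 against 57.4, 71.1 and 73.8 CPM, and KIF7, at 15.1, 13.4 and 13.9 against 14.7, 15.3 and 13.6, were not called, and neither were KIF12, KIF25, KIF26A and KIF27. Exons of KIF2A, KIFC2, KIF9, KIFC1 and KIF7 overlap a gene on the other strand over 18.7%, 17.8%, 14.8%, 14% and 10.8% of their bases, those of other kinesins do so over smaller shares, and the strand setting of the counting was not stated. With the replicate block 4 rather than 1 of the other kinesins were lower, with KIF2A, KIF26A and KIF27 added.

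A change of at least 2-fold was reached by 4 kinesins: KIF18A fell, and KIF1A, KIF1B and KIF26B rose. Of all genes tested, 1.99% fell and 9.22% rose by that rule. Without wild type p53 replicate 3 the count was 8.

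**Figure D2:**
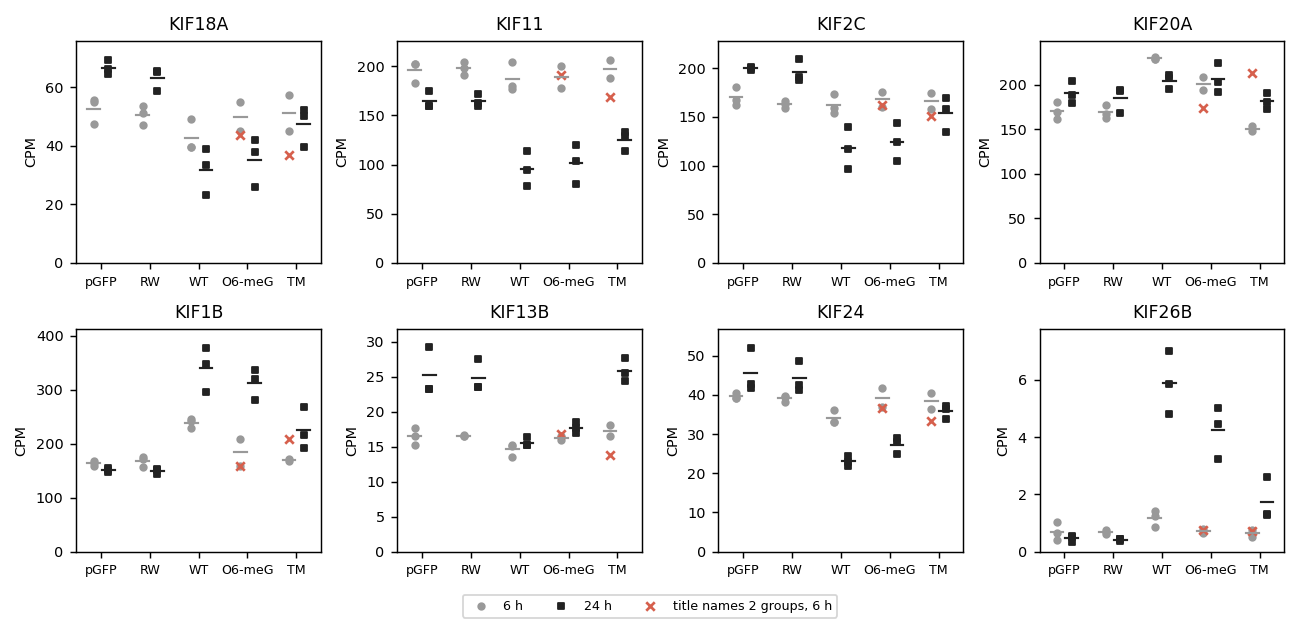
CPM of 8 kinesins in every library, by vector (x axis), at 6 h (circles) and 24 h (squares), with the group means as bars; crosses are the 2 libraries whose titles name 2 groups. KIF18A, KIF11 and KIF2C are lower with wild type p53 at 24 h, KIF20A is not, and KIF1B and KIF26B are higher.

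The genes that act with kinesins or regulate proliferation were listed with earlier results of these data known, and their counts stand beside the 14.5% of all genes tested that fell and the 20.5% that rose. Of 16 mitotic partners, such as the Aurora kinases, the chromosomal passenger complex and the cyclin B kinase, 14 fell and none rose, with a median log2 fold change of -0.52. CDK1 fell by 1.32 and CENPE, a kinetochore kinesin by another name, by 0.90 on the log2 scale, while AURKB and BIRC5 were not called. Of 16 partners of the transport kinesins, 3 rose and 4 fell, with a median log2 fold change of 0.05. The share that rose was near that of all genes, and the share that fell was above it. KLC3, a kinesin light chain, rose by 1.30 and TRAK2, a mitochondrial adaptor of KIF5, by 0.92, while DYNC1I1, a dynein chain, fell by 0.88. KIFBP, which binds and inhibits several kinesins, fell by 0.43. Of 7 proliferation regulators 5 fell and 1 rose.

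Summed over the mitotic kinesins, the level at 24 h was 1505 to 1560 CPM in pGFP libraries and 927 to 1238 in wild type p53 libraries. Summed over the transport kinesins it was 1523 to 1623 against 1926 to 2129 CPM. The ratio of the mitotic to the transport sum was 0.983 ± 0.0200 with pGFP, 0.947 ± 0.0130 with RW, 0.527 ± 0.106 with wild type p53, 0.541 ± 0.1 with p53 O6-meG and 0.672 ± 0.0997 with p53 TM (SD, n = 3). These sums are not per length and rest mostly on the genes with high counts.

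At 6 h the picture differed. No kinesin fell with wild type p53 in edgeR, and 6 rose, against backgrounds of 1.59% lower and 8.68% higher. They were the mitotic KIF20A and KIF20B and the transport KIF1B, KIF1C, KIF21A and KIF3B. At an unadjusted p under 0.05 in edgeR, 1 kinesin was lower and 8 were higher, beside 19.4% of all genes in either direction. DESeq2 called 1 kinesin lower. In a fit of these 2 groups alone, 3 mitotic kinesins were lower. With the replicate number as a block within each time, KIF24 was called lower (log2 fold change -0.22, edgeR adjusted p = 0.02) and KIF13A (0.17, adjusted p = 0.023) and KIF26B (0.74, adjusted p = 0.02) were called higher.

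KIF20A, needed for cytokinesis, was at 162, 180 and 170 CPM with pGFP and at 228, 231 and 229 with wild type p53. KIF20B, a motor of the same family, was at 133, 127 and 142 against 192, 166 and 170 CPM. Both were higher without overlap, with log2 fold changes of 0.43 ± 0.07 and 0.40 ± 0.08 (SE). KIF1B was at 159, 164 and 168 against 242, 229 and 245 CPM, and KIF1C at 206, 206 and 201 against 256, 251 and 258. KIF21A was at 263, 272 and 277 against 374, 344 and 339 CPM, and KIF3B at 225, 227 and 225 against 271, 266 and 259. None of these 4 overlapped, but KIF3B, at a log2 fold change of 0.23, lost its call without any of the pGFP libraries or wild type p53 replicate 1 or 2.

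The response at 24 h differed from that at 6 h, by a test of the difference itself, for 13 kinesins. The difference was lower at 24 h for 7 mitotic kinesins (KIF11, KIF14, KIF15, KIF18A, KIF2C, KIF20A and KIF20B), for KIF13B and for KIF24, and higher for KIF13A, KIF1B, KIF1C and KIF26B. Of all genes 2.77% were lower and 3.73% higher in this test. The count of 7 mitotic kinesins was 12 without wild type p53 24 h replicate 3 and with the replicate block, and 3 or 4 without any other single library of the comparison.

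The RW mutant left the kinesins without a called difference from pGFP. At 6 h and at 24 h edgeR called none of 39, DESeq2 called none, and none passed an unadjusted p under 0.05. Of all genes 0.00469% were called higher and 0% lower at each time in edgeR. There 1.02% of all genes at 6 h and 0.975% at 24 h passed an unadjusted p under 0.05. KIF18A at 24 h was at 65.2, 65.5 and 58.8 CPM with RW, beside 64.4, 69.3 and 66.4 with pGFP, and its log2 fold change was -0.08 ± 0.16 (SE). A p above the threshold does not show that the groups are alike, and the 95% interval of the KIF18A difference (normal approximation) ran from -0.39 to 0.23. Against RW at 24 h, 10 mitotic kinesins were lower and none higher with wild type p53, with backgrounds of 15.4% and 20.2%, and 8 transport kinesins were higher and 6 lower. These comparisons share the wild type p53 libraries with those against pGFP.

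With p53 O6-meG at 24 h, 10 mitotic kinesins fell and none rose, and 6 transport kinesins rose and 5 fell, while 11.3% of all genes fell and 18.1% rose. KIF18A was at 25.8, 37.8 and 42.1 CPM, KIF11 at 80.7, 104 and 120, and KIF1B at 336, 320 and 280. All 3 lay outside the range of the pGFP libraries. KIF26B was at 5.01, 4.46 and 3.23 CPM, a log2 fold change of 3.17 ± 0.31 (SE). KIF24 and KIF26A fell by 0.74 and 0.65 on the log2 scale. With the replicate block, 4 rather than 2 of the other kinesins were lower.

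Set directly against wild type p53 at 24 h, p53 O6-meG gave no called kinesin in edgeR or DESeq2. Of all genes 0% were called higher and 0.00937% lower in edgeR. An unadjusted p under 0.05 was reached by 4 kinesins in each tool, and by 4.96% of all genes in edgeR and 5.16% in DESeq2. With the replicate block 2 kinesins were lower, KIF1A by 0.78 and KIF26A by 0.44 on the log2 scale. KIF1A was at 1.79, 2.73 and 1.86 CPM with p53 O6-meG and at 3.35, 4.52 and 3.15 with wild type p53, without overlap. At 6 h, with 2 libraries of p53 O6-meG in the fit, no kinesin was called against pGFP in edgeR or DESeq2. Of all genes 4.32% were called higher and 0.53% lower in edgeR. An unadjusted p under 0.05 was reached there by 4 kinesins and by 17.1% of all genes. With the block within each time, KIF20A, KIF20B and KIF1C were called higher and KIF5C and KIF27 lower. KIF20A and KIF20B were likewise called higher if the doubtful libraries went by how their titles begin.

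With p53 TM at 24 h, 6 mitotic kinesins fell and none rose, and 4 transport kinesins rose and none fell, while 1.68% of all genes fell and 9% rose. KIF18A was at 39.5, 52.3 and 50.2 CPM, KIF11 at 113, 129 and 133, and KIF2C at 135, 158 and 170. Each lay under all pGFP libraries, with log2 fold changes of -0.49 ± 0.16, -0.39 ± 0.11 and -0.38 ± 0.11 (SE). KIF14, KIF18B and KIFC1 also fell. With the replicate block 10 mitotic kinesins fell, with KIF15, KIF22, KIF23 and KIF4A added, while the 1.68% above is from the fit without a block. The count of 6 was 0 without p53 TM replicate 1, 3 without pGFP replicate 1, and 2 without pGFP replicate 2 or 3.

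Of the transport kinesins, KIF1B was at 268, 215 and 193 CPM with p53 TM, KIF3B at 271, 257 and 227, KIF21A at 310, 254 and 241, and KIF13A at 131, 130 and 120. All 4 rose, by log2 fold changes of 0.58, 0.49, 0.44 and 0.29. KIF26B was at 2.60, 1.30 and 1.29 CPM, a log2 fold change of 1.87 ± 0.32 (SE), while KIF24 and KIF26A fell by 0.35 and 0.47. At 6 h, with 2 libraries, no kinesin was called with p53 TM in edgeR or DESeq2, while 0.192% of all genes were called higher and 0.00937% lower. An unadjusted p under 0.05 was reached in edgeR by 2 of the 39 kinesins and by 5.98% of all genes.

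**Figure D3:**
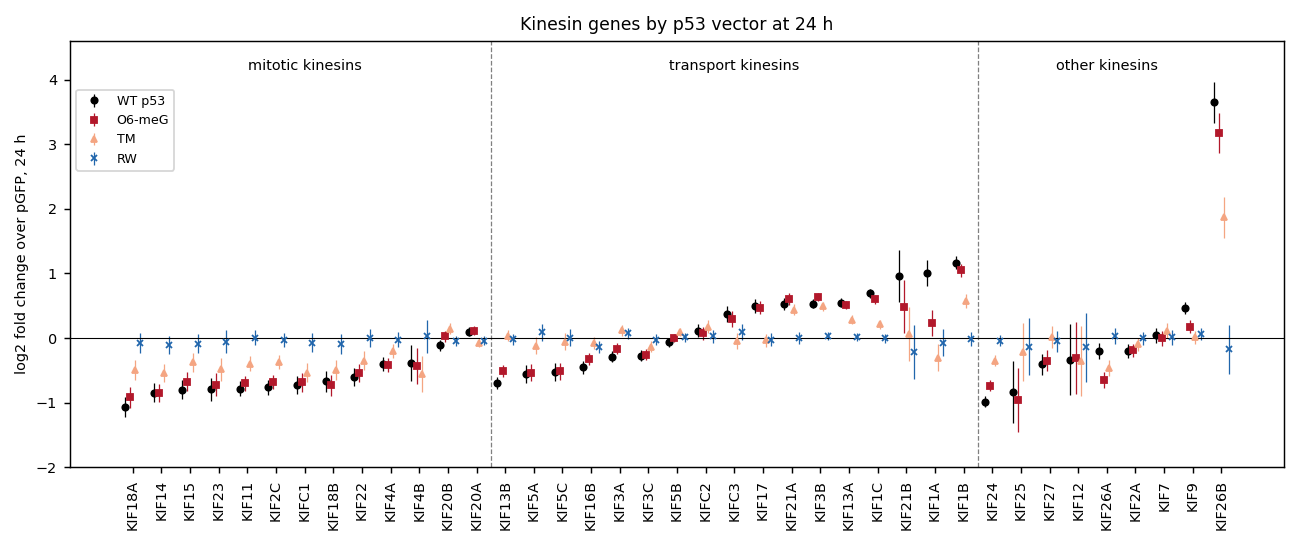
Log2 fold change over pGFP at 24 h, with standard error, for the 39 kinesins tested, by class; wild type p53 (circles), p53 O6-meG (squares), p53 TM (triangles) and RW (crosses) share the same pGFP libraries. RW lies near 0, and KIF18A stands at -1.06 with wild type p53 and at -0.49 with p53 TM.

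Set directly against wild type p53 at 24 h, p53 TM was higher for 5 mitotic kinesins and lower for none. Of all genes 9.29% were higher and 11.9% lower in this fit, which has no block. KIF18A was at 39.5, 52.3 and 50.2 CPM with p53 TM against 23.3, 33.4 and 38.9 with wild type p53, a log2 difference of 0.57 ± 0.16 (SE) and no overlap. KIF20B was at 145, 127 and 120 against 118, 106 and 104 CPM, also without overlap. KIF15, at 28.3, 37.1 and 40.7 with p53 TM, overlapped with 21.7, 26.0 and 31.4, and so did KIF11 and KIF2C. The count of 5 was 9 with the replicate block, which also called KIF20A lower (log2 difference -0.175, edgeR adjusted p = 0.0065), as 1 mitotic kinesin was with DESeq2, and 0 in a fit of these 2 groups alone. It was 1, 3 and 8 without wild type p53 replicates 1, 2 and 3, and 2 without p53 TM replicate 2 or 3.

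The transport kinesins moved both ways in this comparison, with 5 higher and 6 lower. KIF13B was at 27.6, 25.5 and 24.4 CPM with p53 TM, a log2 difference of 0.73 ± 0.09 (SE) from wild type p53, and KIF3A at 51.3, 52.0 and 51.7. KIF5A was at 10.6, 9.79 and 9.95 CPM, KIF5C at 46.2, 39.8 and 37.7, and KIF16B at 27.4, 30.4 and 28.1. All 5 lay above the wild type p53 libraries, and the count of 5 was 3 without p53 TM replicate 1 or wild type p53 replicate 2.

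Lower with p53 TM were KIF1A at 1.35, 1.76 and 1.32 CPM, KIF1C at 215, 206 and 201, and KIF17 at 10.2, 10.8 and 9.70. KIFC3 was at 64.0, 73.0 and 77.0 CPM, and KIF1B and KIF13A stood as given above. The log2 differences ran from -1.32 for KIF1A to -0.26 for KIF13A, with no overlap. Among the other kinesins KIF24, at 37.1, 33.8 and 36.4 CPM, was higher by 0.64 log2, KIF26B was lower by a log2 difference of -1.78 ± 0.27 (SE), and KIF9, at 8.14, 9.26 and 10.3 CPM, was lower by -0.46.

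At 6 h, p53 TM in 2 libraries was lower than wild type p53 for KIF20A and KIF20B and for 5 transport kinesins, and higher for none, while 8.14% of all genes were lower and 2.77% higher. KIF20A was at 148 and 154 CPM and KIF20B at 130 and 128, under all wild type p53 libraries. KIF1B was at 172 and 169, KIF21A at 252 and 278, KIF1C at 200 and 202, KIF3B at 218 and 224, and KIF13A at 118 and 125 CPM, the last against 141, 137 and 146. All 7 lay below the wild type p53 range. Leaving out either p53 TM library left only 1 in that group. The transport count of 5 was 0 without p53 TM replicate 1, 2 without its replicate 3 and 3 without wild type p53 replicate 1; with the 2 doubtful libraries placed by the genotype field, both counts were 0.

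Against p53 O6-meG at 24 h, p53 TM was called for no mitotic kinesin by edgeR and for 1, which was lower, by DESeq2. Of all genes 3.47% were called higher and 6.58% lower in edgeR's fit without a block. An unadjusted p under 0.05 was reached there by 5 mitotic kinesins, 4 higher and 1 lower, and by 23.3% of all genes. With the replicate block 6 mitotic kinesins were higher (KIF11, KIF14, KIF15, KIF18A, KIF2C and KIF4A) and KIF20A was lower. Without p53 O6-meG replicate 3 the count of higher ones was 6, and without p53 TM replicate 1 it was 2. Among the transport kinesins KIF3A, KIF5A, KIF5C and KIF13B were higher and KIF1B, KIF1C, KIF13A and KIF17 were lower, and the block gave 7 lower. The 4 higher became 1 or 2 without any single p53 TM library or p53 O6-meG replicate 1 or 2. KIF24 was higher and KIF26B lower.

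In pGFP cells, from 6 h to 24 h, 1 mitotic kinesin rose (KIF14, by 0.44 log2) and none fell, and 6 transport kinesins rose and 6 fell, while 19% of all genes rose and 22.3% fell. KIF1A, KIF16B, KIF13B and KIF3C were among those that rose, by 1.79, 0.64, 0.61 and 0.60 log2, and KIF21A and KIF3B among those that fell, by 0.45 and 0.33. The mitotic count was the least settled of these: DESeq2 called 4 higher, and a fit of the 2 groups alone 6 higher and 3 lower. Without pGFP 24 h replicate 1, 2 were higher. The block within each time cannot give this comparison, because it would set replicate 1 at 24 h against replicate 3 at 6 h.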

How the data were processed

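The authors sequenced ribosome-depleted stranded RNA as single reads, aligned it with STAR 2.5.3a to hg38 and counted reads per gene with featureCounts of Subread 1.5.2; the deposited values are raw counts, with no strand setting stated. No column of other samples was used, and the authors' normalized table was not used. Members and lists were chosen with earlier results of these data known. Genes passing filterByExpr were fitted with edgeR 4.0.16 in R 4.3.3 (quasi-likelihood test, TMM, 1 mean per group, Benjamini-Hochberg over 21335 genes, called at 0.05), and SE is the log2 fold change over the root of F. Scripts were tested on simulated data. Levels are TMM-scaled CPM; lengths are GENCODE release 44 exon unions. Every library's values are given for members called with wild type p53 against pGFP, for the highest per class, and for some members called elsewhere. Residual correlations of same-numbered libraries exceeded 0.1 in 30 of 30 pairs at 24 h and 8 of 9 at 6 h. The data, though no label, thus pair the 24 h libraries. The reported fit has no block, and blocked values are given for only some of the calls that changed. Over all 585 kinesin values the block within each time added 73 calls and ended 1. A kinesin not named as called may therefore pass with the block. The block within each time cannot give pGFP at 24 h against 6 h. Shares of all genes called are from the fit without a block, and none is given for blocked fits. Alternatives were DESeq2 1.42.0, filters, blocks, groupings of the doubtful libraries and each library left out; the block within each time was chosen after seeing the data. Replicates within a group differed beyond counting noise (chi-square per degree of freedom of 5.51 or more), so none was a copy. P-values of the reported fit rest on the spread between libraries within groups, estimated over all 28 libraries fitted. They take no account of the pairing. The level of the transfected gene is not reported here.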

Additional observations from a re-analysis of the deposited data

Results flagged for a closer look

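The difference between the wild type p53 response at 24 h and that at 6 h (log2 fold change over pGFP at 24 h minus that at 6 h) passed the edgeR interaction test for 13 kinesins. The differences were KIF11 -0.72, KIF13A 0.37, KIF13B -0.52, KIF14 -0.71, KIF15 -0.68, KIF18A -0.77, KIF1B 0.63, KIF1C 0.37, KIF20A -0.33, KIF20B -0.51, KIF24 -0.77, KIF26B 2.91, KIF2C -0.70. The mitotic members were those of the microtubule motors KIF11, KIF14, KIF15, KIF18A, KIF2C, KIF20A and KIF20B, and their part in any change of cell cycle was not tested.

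The library labelled p53 TM, 6 h, replicate 2, which was left out of the reported fit because its title names 2 groups, was above every pGFP 6 h library for the 6 kinesins that rose with wild type p53 at 6 h. Its levels were KIF1B 209 CPM, KIF1C 251 CPM, KIF20A 213 CPM, KIF20B 157 CPM, KIF21A 319 CPM, KIF3B 250 CPM. The library labelled p53 O6-meG, 6 h, replicate 2 was above them for KIF21A, at 283 CPM. Both groups had the same vector, and which of the 2 libraries had O6-benzylguanine was not tested beyond these values and the CDKN1A levels.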

How the results depend on the processing

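The single values were those of all 39 kinesins for wild type p53 against pGFP at 24 h and of called kinesins elsewhere, so that few could gain a call. Of these 175 values and 2691 alternative values of them, 2434 kept their direction and their side of the threshold, 241 lost and 13 gained the call, and 3 changed sign, none of them called: KIF12 (between -0.711 and 0.235 with each library left out in turn) and KIF7 (between -0.007 and 0.09, and -0.041 with every gene of at least 1 count). Over all 585 kinesin values in the 15 comparisons, the replicate block within each time added 73 calls and ended 1. The ended call, of KIF14, and some of the added ones are from pGFP at 24 h against 6 h, which that block cannot give. The 10 mitotic kinesins lower with wild type p53 at 24 h stayed 10 under every alternative run, except that counting KIF2A, KIF24 and KIF25 as mitotic gave 11. Counts that moved by more than 1.5 times are given with the reported count in brackets; the cause was not tested. In fits of only the groups compared the counts were mitotic lower in WT p53 vs pGFP, 6 h 3 (0), other lower in WT p53 vs pGFP, 6 h 1 (0), transport lower in p53 O6-meG vs pGFP, 6 h 1 (0), other lower in p53 TM vs pGFP, 24 h 1 (2). For that setting, further counts were mitotic higher in p53 TM vs WT p53, 24 h 0 (5), transport higher in p53 TM vs WT p53, 24 h 3 (5), other lower in p53 TM vs WT p53, 24 h 1 (2), transport lower in p53 TM vs p53 O6-meG, 24 h 1 (4). The same setting gave transport higher in p53 TM vs p53 O6-meG, 24 h 1 (4), other lower in p53 TM vs p53 O6-meG, 24 h 0 (1), other higher in p53 TM vs p53 O6-meG, 24 h 0 (1), mitotic lower in pGFP, 24 h vs 6 h 3 (0). Under it, more counts were mitotic higher in pGFP, 24 h vs 6 h 6 (1), other lower in pGFP, 24 h vs 6 h 0 (1), transport lower in the time difference of the WT response 2 (1), other higher in the time difference of the WT response 2 (1). With DESeq2's size factors in edgeR the counts were other lower in WT p53 vs pGFP, 6 h 1 (0), other lower in WT p53 vs pGFP, 24 h 2 (1), transport lower in p53 TM vs WT p53, 6 h 3 (5), mitotic lower in p53 TM vs WT p53, 24 h 1 (0). It also gave mitotic higher in pGFP, 24 h vs 6 h 4 (1), other lower in pGFP, 24 h vs 6 h 0 (1). In DESeq2's test the counts were other lower in WT p53 vs pGFP, 6 h 1 (0), other lower in WT p53 vs pGFP, 24 h 2 (1), mitotic lower in p53 TM vs WT p53, 24 h 1 (0), mitotic lower in p53 TM vs p53 O6-meG, 24 h 1 (0). Other counts with it were mitotic higher in pGFP, 24 h vs 6 h 4 (1), other lower in pGFP, 24 h vs 6 h 0 (1), transport lower in the time difference of the WT response 2 (1), other higher in the time difference of the WT response 2 (1). With the replicate block within each time the counts were other lower in WT p53 vs pGFP, 6 h 1 (0), other higher in WT p53 vs pGFP, 6 h 1 (0), other lower in WT p53 vs pGFP, 24 h 4 (1), mitotic higher in p53 O6-meG vs pGFP, 6 h 2 (0). For that setting, further counts were transport lower in p53 O6-meG vs pGFP, 6 h 1 (0), transport higher in p53 O6-meG vs pGFP, 6 h 1 (0), other lower in p53 O6-meG vs pGFP, 6 h 1 (0), other lower in p53 O6-meG vs pGFP, 24 h 4 (2). The same setting gave mitotic lower in p53 TM vs pGFP, 24 h 10 (6), transport higher in p53 TM vs WT p53, 6 h 1 (0), other lower in p53 TM vs WT p53, 6 h 1 (0), mitotic lower in p53 TM vs WT p53, 24 h 1 (0). Under it, more counts were mitotic higher in p53 TM vs WT p53, 24 h 9 (5), other higher in p53 TM vs WT p53, 24 h 2 (1), transport lower in p53 O6-meG vs WT p53, 24 h 1 (0), other lower in p53 O6-meG vs WT p53, 24 h 1 (0). It also gave mitotic lower in p53 TM vs p53 O6-meG, 24 h 1 (0), mitotic higher in p53 TM vs p53 O6-meG, 24 h 6 (0), transport lower in p53 TM vs p53 O6-meG, 24 h 7 (4), other higher in p53 TM vs p53 O6-meG, 24 h 2 (1). Other counts with it were mitotic higher in WT p53 vs RW mutant p53, 24 h 1 (0), other lower in WT p53 vs RW mutant p53, 24 h 4 (1). This block cannot give counts for pGFP, 24 h vs 6 h. For that setting, further counts were mitotic lower in the time difference of the WT response 12 (7), transport lower in the time difference of the WT response 4 (1), transport higher in the time difference of the WT response 6 (3). The same setting gave other lower in the time difference of the WT response 2 (1), other higher in the time difference of the WT response 2 (1). With every gene of at least 1 count the counts were other lower in WT p53 vs pGFP, 24 h 2 (1), transport lower in p53 TM vs WT p53, 6 h 3 (5), other higher in p53 TM vs WT p53, 24 h 2 (1), other lower in WT p53 vs RW mutant p53, 24 h 2 (1). Under it, more counts were transport lower in pGFP, 24 h vs 6 h 3 (6), other lower in pGFP, 24 h vs 6 h 0 (1), transport lower in the time difference of the WT response 2 (1), transport higher in the time difference of the WT response 1 (3). With the replicate number as a block the counts were other lower in WT p53 vs pGFP, 24 h 2 (1), mitotic higher in p53 O6-meG vs pGFP, 6 h 2 (0), mitotic lower in p53 TM vs WT p53, 24 h 1 (0), other higher in p53 TM vs WT p53, 24 h 2 (1). It also gave other lower in WT p53 vs RW mutant p53, 24 h 2 (1), mitotic lower in pGFP, 24 h vs 6 h 1 (0), mitotic higher in pGFP, 24 h vs 6 h 2 (1), other lower in pGFP, 24 h vs 6 h 2 (1). Other counts with it were transport lower in the time difference of the WT response 2 (1). With them placed by the first part of the title the counts were other lower in WT p53 vs pGFP, 24 h 2 (1), mitotic higher in p53 O6-meG vs pGFP, 6 h 2 (0), transport higher in p53 O6-meG vs pGFP, 6 h 1 (0), transport lower in the time difference of the WT response 2 (1). For that setting, further counts were other higher in the time difference of the WT response 2 (1). With the doubtful libraries placed by the genotype field the counts were mitotic lower in p53 TM vs WT p53, 6 h 0 (2), transport lower in p53 TM vs WT p53, 6 h 0 (5), transport higher in p53 TM vs p53 O6-meG, 24 h 1 (4), mitotic lower in the time difference of the WT response 4 (7). With at least 10 counts in every library the counts were mitotic lower in p53 TM vs WT p53, 24 h 1 (0), mitotic lower in p53 TM vs p53 O6-meG, 24 h 1 (0), mitotic higher in p53 TM vs p53 O6-meG, 24 h 1 (0), mitotic higher in WT p53 vs RW mutant p53, 24 h 1 (0). The same setting gave mitotic higher in pGFP, 24 h vs 6 h 4 (1), other lower in pGFP, 24 h vs 6 h 0 (1), transport lower in the time difference of the WT response 2 (1), other higher in the time difference of the WT response 2 (1). With KIF2A, KIF24 and KIF25 counted as mitotic the counts were mitotic higher in p53 TM vs p53 O6-meG, 24 h 1 (0). Leaving out each library in turn, the ranges were at least 2-fold changed in WT p53 vs pGFP, 24 h 3 to 8 (4), mitotic higher in p53 O6-meG vs pGFP, 6 h 0 to 1 (0), mitotic higher in p53 TM vs p53 O6-meG, 24 h 0 to 6 (0), mitotic higher in p53 TM vs WT p53, 24 h 1 to 8 (5). Further ranges were mitotic higher in pGFP, 24 h vs 6 h 1 to 2 (1), mitotic lower in p53 TM vs pGFP, 24 h 0 to 6 (6), mitotic lower in the time difference of the WT response 3 to 12 (7), other higher in p53 TM vs WT p53, 24 h 1 to 2 (1). The next ranges were other higher in WT p53 vs pGFP, 6 h 0 to 1 (0), other lower in p53 TM vs pGFP, 24 h 1 to 2 (2), other lower in pGFP, 24 h vs 6 h 0 to 1 (1), other lower in WT p53 vs RW mutant p53, 24 h 1 to 2 (1). More ranges were other lower in WT p53 vs pGFP, 24 h 1 to 2 (1), transport higher in p53 TM vs p53 O6-meG, 24 h 1 to 3 (4), transport higher in p53 TM vs WT p53, 24 h 3 to 5 (5), transport higher in the time difference of the WT response 1 to 4 (3). Other ranges were transport lower in p53 TM vs WT p53, 6 h 0 to 4 (5), transport lower in the time difference of the WT response 0 to 2 (1). At 6 h, leaving out a p53 O6-meG or p53 TM library left only 1 in that group. Without length, ranks among kinesins in pGFP shift for genes of unequal length. Kinesins at low CPM, such as KIF4B, KIF12 and KIF25, had wide errors that limit what was detectable at this depth.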
